A study of Mus musculus with 6 samples.

Results

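The genes described here are 8 receptors, junction proteins and surface or secreted proteins best known from blood vessel endothelium: Kdr, Flt1, Tek, Tie1, Ptprb, Cdh5, Pecam1 and Vwf. They were measured in cultured epithelium of the mouse fallopian tube. Their probes were chosen by matching each probe's RefSeq transcript to these symbols. The array has 11 such probes of 56605, and the 8 genes stand among 23787 that could be named. The genes were picked with their values on these arrays in view, so every level and difference below is a description, and none has a test.

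Total RNA of 6 organoid cultures was hybridised to one-colour (Cy3) arrays, 1 array for each of 6 groups. All groups came from female fallopian tube and grew without serum, with CHIR-99021, Y27632, Jagged-1, Noggin, EGF and R-spondin1 in the medium. The age of the animals is not given in the sources used here. The control culture, from mice with floxed Trp53 (Trp53flox/flox), was transduced with the vector pLKO.1, and the culture called Trp53 loss is labelled as having lost the gene. The Pik3ca/Trp53 cultures combined Trp53 loss with Pik3caH1047R, an activated PI3-kinase subunit, and the Apc/Trp53 cultures combined it with Apc580D, an allele of the Wnt pathway brake Apc. Each of these pairs was measured before subcutaneous injection and as organoids regrown from the lesion, which the labels call an adenocarcinoma for Pik3ca/Trp53 and a cyst for Apc/Trp53. These regrown cultures are called tumour-derived below. The design names another pair, not analysed here. The labels do not say how many animals or clones stand behind each culture.

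VEGF-A binds the receptor tyrosine kinases KDR (VEGFR2), which carries most of the growth signal in vessels, and FLT1 (VEGFR1), which binds the ligand more tightly and is often described as a decoy. Angiopoietins bind TEK (TIE2), TIE1 is its partner receptor, and PTPRB (VE-PTP) is a phosphatase that removes phosphate from TEK and acts on VE-cadherin, the product of Cdh5. PECAM1 lies at endothelial cell contacts and on platelets and leukocytes, and von Willebrand factor, encoded by Vwf, is stored in endothelial cells and platelets and captures platelets at wounds. Normal fallopian tube epithelium is not a usual source of these proteins.

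A level here is the log2 of a spot's background-subtracted intensity minus the log2 75th percentile of its array, so 0 is the intensity of a spot at that percentile. The ± after a level or difference is the error estimate of Agilent's scanner software for that spot. It covers technical error only and says nothing of the spread between cultures. On each array, 45.4% to 51.0% of probes were well above background, and the lowest intensity so called was between 17.2 and 23.9 across arrays. The log2 SD between copies of a repeated probe well above background had a median of 0.039 to 0.081, depending on the array. All arrays shared 1 slide and 1 scan. Both tumour-derived arrays and the control lay in one row of the slide and the other 3 arrays in the other row, so row and these contrasts cannot be told apart. The Trp53 probe had an intensity of 841 in the control and was also well above background at 162 in tumour-derived Pik3ca/Trp53 and at 42.6 in Apc/Trp53, both labelled as having lost the gene. In total RNA of a whole culture, fewer cells of a type and less RNA per cell cannot be told apart.

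Of the 8 genes, 4 (Flt1, Cdh5, Vwf and Ptprb) were well above background on all 6 arrays. Kdr and Pecam1 were so on 4 arrays each, and Tek and Tie1 on none. The cultures carried epithelial RNA throughout, since 12 of 12 epithelial marker genes were well above background on every array. Of 11 defining endothelial markers, between 3 and 5 were well above background on any array. These 11 include the members Cdh5, Pecam1, Kdr, Tie1 and Tek. Cdh5 and Egfl7 were well above background on all 6 arrays, Egfl7 at levels of 1.16 to 4.94, and Esam on 5. Tie1, Tek, Sox18, Emcn and Cldn5 were so on none.

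**Figure D1:**
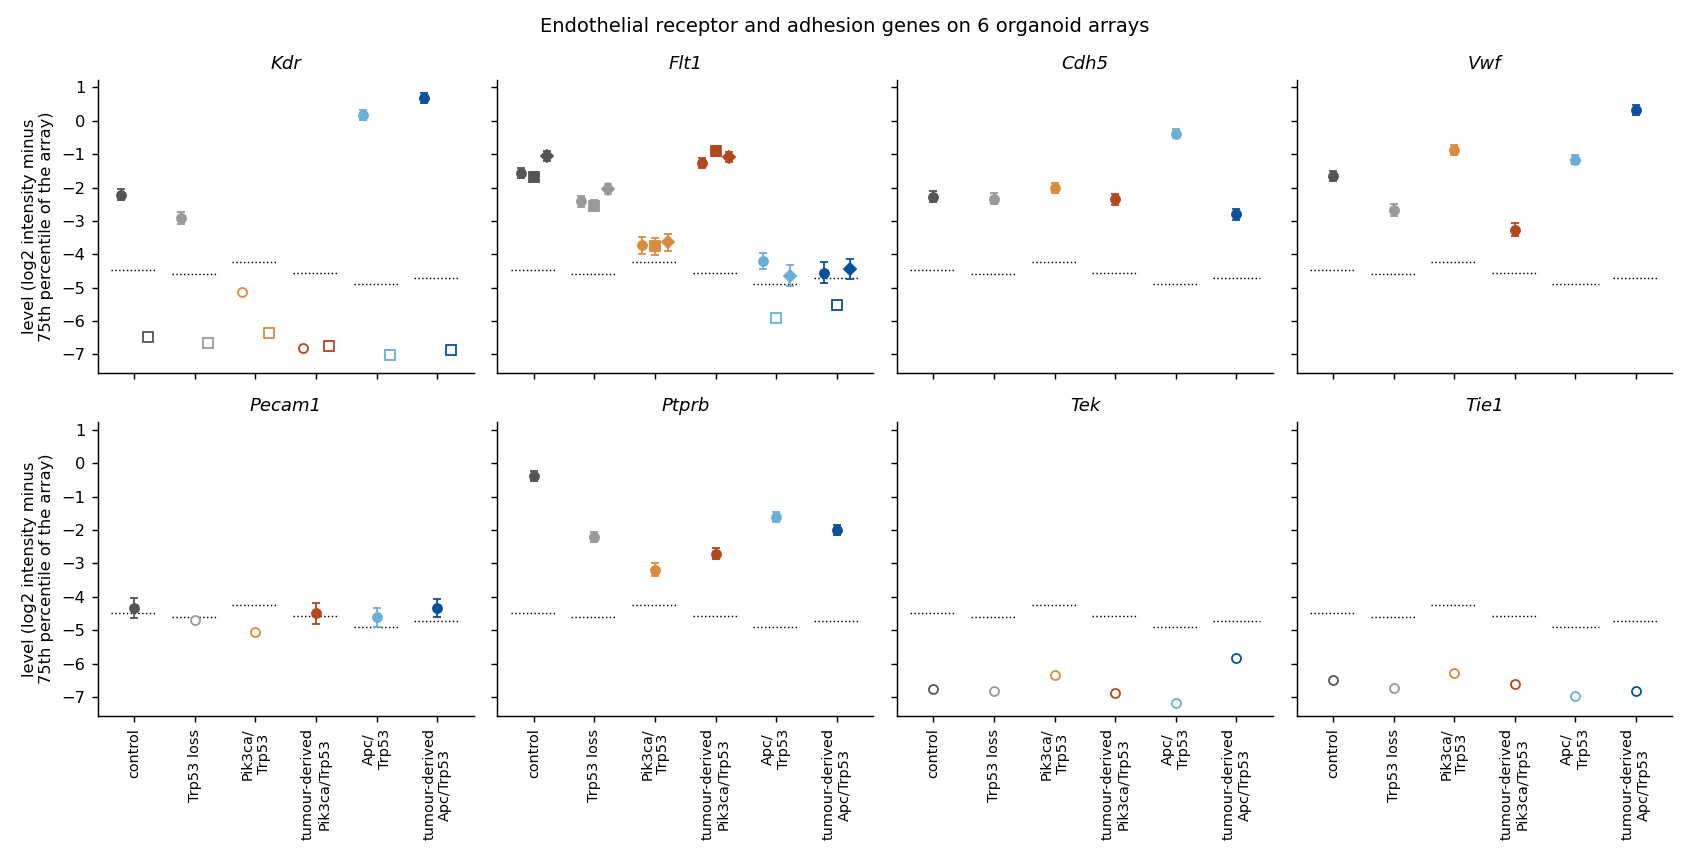
Level of each of the 8 genes on the 6 arrays (y axis, log2 relative to the array's 75th percentile), one panel per gene and one marker shape per probe. Filled points were well above background, with the scanner error as bars, open points were not, and dotted lines give each array's lowest level well above background. Kdr was highest on both Apc/Trp53 arrays, while Flt1 was lowest there.

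The promoters of the VEGF receptors are shown because their transcripts differed from Trp53 loss in opposite directions in Apc/Trp53, while both were lower in Pik3ca/Trp53. RefSeq tables of build GRCm38.p6 held a promoter for 4 of the 8 genes (Kdr, Flt1, Tek and Tie1), and the 250 bases before the start are printed for Kdr and Flt1. Capitals mark GGAA or its reverse complement TTCC, the core bound by ETS factors, a family with known roles in endothelium. Kdr lies on the minus strand with this stretch at chr5:75978456-75978705, and Flt1 on the minus strand at chr5:147726012-147726261.
Kdr: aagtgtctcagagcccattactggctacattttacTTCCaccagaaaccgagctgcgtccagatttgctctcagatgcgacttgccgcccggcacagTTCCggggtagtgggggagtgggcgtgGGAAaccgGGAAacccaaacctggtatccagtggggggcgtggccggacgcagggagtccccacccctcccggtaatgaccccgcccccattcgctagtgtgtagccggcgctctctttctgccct
Flt1: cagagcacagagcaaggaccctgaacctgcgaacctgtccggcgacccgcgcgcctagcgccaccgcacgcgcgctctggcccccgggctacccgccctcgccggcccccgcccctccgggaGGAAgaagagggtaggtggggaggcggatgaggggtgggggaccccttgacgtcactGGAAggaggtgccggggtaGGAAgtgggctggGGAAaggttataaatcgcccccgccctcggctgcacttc
Both stretches held 4 such cores. The core occurred on either strand in 93.4% of 32536 promoters of this length, so its presence sets neither gene apart. Kdr had 61.6% GC and 2 matches of the GC box GGGCGG on either strand, and Flt1 had 70.4% GC and 3. A GC box occurred in 33.0% of promoters. Neither stretch held CTTTG, the core bound by TCF/LEF factors of the Wnt pathway (in 48.7% of promoters), nor ACGTG, the core of hypoxia elements (in 16.7%). No base lay in matches of more than 1 of these motifs. A match of letters is a description, not a binding site.

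Kdr, the main VEGF receptor, was highest on the Apc/Trp53 arrays. Its probe for NM_010612 had intensities of 98.6 in the control, 64.4 with Trp53 loss, 12.8 in Pik3ca/Trp53, 4.50 in tumour-derived Pik3ca/Trp53, 582 in Apc/Trp53 and 906 in tumour-derived Apc/Trp53. Neither Pik3ca/Trp53 array was well above background, and the other 4 arrays fell in an order in which each neighbour differed by more than 1.96 scanner errors. The top step, 0.51, was 0.17 on scaling to the array median, within the scanner error of 0.20. The 4 levels were 0.69 ± 0.14 in tumour-derived Apc/Trp53, 0.18 ± 0.14 in Apc/Trp53, -2.21 ± 0.16 in the control and -2.91 ± 0.18 in Trp53 loss. With the dim arrays at their detection limit, highest and lowest lay 5.25 log2 units apart. A second probe, for NM_001363216, was well above background on no array (intensity 3.94 to 5.46), so the pattern rests on 1 probe.

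Flt1, the other VEGF receptor, was highest in the control and in tumour-derived Pik3ca/Trp53 and lowest on both Apc/Trp53 arrays. Its probe for NM_010228 had intensities of 155 in the control, 90.7 with Trp53 loss, 33.9 in Pik3ca/Trp53, 211 in tumour-derived Pik3ca/Trp53, 27.9 in Apc/Trp53 and 24.0 in tumour-derived Apc/Trp53. A probe for NM_001363135 gave 219, 117, 36.2, 238, 20.6 and 26.0 in the same order. Another probe for NM_001363135 gave 142, 82.5, 33.4 and 270 on the first 4 arrays and was not well above background on the Apc/Trp53 arrays (8.62 and 12.4). All 3 probes put Apc/Trp53 and its tumour-derived culture lowest and the control and tumour-derived Pik3ca/Trp53 highest. The last pair differed by more than 1.96 scanner errors for 1 of the 3 probes. For the first probe, Apc/Trp53 and Pik3ca/Trp53, the array next above it, did not differ beyond that error (0.47 ± 0.35). Highest and lowest lay 9.82-fold to 16.0-fold apart, depending on the probe, with dim signals at the limit.

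Tek and Tie1, the angiopoietin receptor and its partner, were well above background on no array, with intensities of 3.58 to 9.90 for Tek and 4.09 to 5.86 for Tie1. Ptprb, the phosphatase that acts on TEK, was measured on every array. Its intensities were 349 in the control, 104 with Trp53 loss, 49.7 in Pik3ca/Trp53, 77.1 in tumour-derived Pik3ca/Trp53, 168 in Apc/Trp53 and 142 in tumour-derived Apc/Trp53. The control stood above all others, with a level of -0.39 against -1.61 in Apc/Trp53, the next array. Next in order, neither Apc/Trp53 and tumour-derived Apc/Trp53 nor the latter and Trp53 loss differed beyond 1.96 scanner errors. Trp53 loss stood above tumour-derived Pik3ca/Trp53 beyond that error, and the Pik3ca/Trp53 pair did not differ beyond it. The range was 6.94-fold.

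Cdh5, the cadherin of endothelial junctions, was high on a single array. Its intensities were 94.5 in the control, 95.8 with Trp53 loss, 111 in Pik3ca/Trp53, 98.4 in tumour-derived Pik3ca/Trp53, 394 in Apc/Trp53 and 80.9 in tumour-derived Apc/Trp53. The Apc/Trp53 array had a level of -0.38 ± 0.14, and the other 5 lay between -2.80 and -2.02. No neighbours among those 5 were apart by more than 1.96 scanner errors. Arrays farther apart in the order were, since tumour-derived Apc/Trp53 differed from the control by -0.52 ± 0.23. Pecam1, another contact protein, stayed near the detection limit everywhere, with intensities of 22.8 in the control, 22.4 in tumour-derived Pik3ca/Trp53, 20.9 in Apc/Trp53 and 28.2 in tumour-derived Apc/Trp53. The Trp53 loss (18.7) and Pik3ca/Trp53 (13.7) arrays were not well above background, and no neighbours in the order differed beyond 1.96 scanner errors. Pecam1 was well above background on at least 1 array in 4 of the 5 comparisons described next, and its differences as measured lay there between -0.37 and 0.55, each reaching neither 2-fold nor 1.96 scanner errors.

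Vwf, the platelet-capturing protein, was highest in tumour-derived Apc/Trp53 and lowest in tumour-derived Pik3ca/Trp53. Its intensities were 144 in the control, 75.7 with Trp53 loss, 246 in Pik3ca/Trp53, 52.4 in tumour-derived Pik3ca/Trp53, 229 in Apc/Trp53 and 706 in tumour-derived Apc/Trp53. Pik3ca/Trp53 and Apc/Trp53 did not differ beyond 1.96 scanner errors, and every other pair of neighbours did. The range was 12.1-fold.

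Trp53 loss was compared with the control to ask what followed the loss of p53 alone. Ptprb was 3.53-fold lower (log2 difference -1.82 ± 0.21) and Vwf 2.01-fold lower (-1.01 ± 0.23). Flt1 was 1.87-fold lower, with 3 probes between which the difference had an SD of 0.0735, and Kdr was 1.62-fold lower (-0.69 ± 0.24). Cdh5 was level (-0.06 ± 0.23). So 2 of 6 measured members were at least 2-fold lower and 0 higher, beside 7.58% and 5.86% of 14361 genes (1088 and 841). The members' median was -0.80 and that of all genes 0.03. Vwf fell short of 2-fold with quantile normalization (-0.92), with normexp correction (-0.52), in the authors' deposited table (-0.97) and on scaling to the array median (-0.82). The last turned the counts over all genes to 856 lower and 1092 higher and moved their median to 0.22.

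Pik3ca/Trp53 was compared with Trp53 loss to ask what the PI3-kinase mutant added. Vwf was 3.47-fold higher (1.80 ± 0.22). Flt1 was 2.60-fold lower (-1.38 ± 0.17), and Kdr, not well above background in Pik3ca/Trp53, was at least 2.52-fold lower. Ptprb was 1.96-fold lower (-0.97 ± 0.25) and Cdh5 1.24-fold higher (0.32 ± 0.23). Of 5 measured members, 1 was at least 2-fold higher and 2 lower, beside 9.15% and 8.54% of 14237 genes. The medians were -0.97 for the members and 0.01 for all genes. Under normexp background correction, which adds an offset of 50 to each signal, Kdr (-0.59) and Flt1 (-0.55) fell short of 2-fold. Against the control, which this comparison does not use, Vwf was 1.73-fold higher, Ptprb 6.94-fold and Flt1 4.84-fold lower, and Kdr at least 4.08-fold lower. That made 0 of 6 members at least 2-fold higher and 3 lower, beside 10.6% and 11.3% of 14331 genes.

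Apc/Trp53 was compared with Trp53 loss in the same way. Kdr was 8.50-fold higher (3.09 ± 0.23), Cdh5 3.87-fold higher (1.95 ± 0.22) and Vwf 2.85-fold higher (1.51 ± 0.22). Flt1 was at least 4.74-fold lower, with the probe that was dim in Apc/Trp53 at the limit. Ptprb was 1.52-fold higher (0.60 ± 0.21). Of 6 measured members, 3 were at least 2-fold higher and 1 lower, beside 5.43% and 5.19% of 14463 genes. The medians were 1.06 for the members and 0.03 for all genes. Under normexp correction Flt1 (-0.98) and Vwf (0.96) fell just short of 2-fold. Against the control, Kdr was 5.25-fold and Cdh5 3.71-fold higher, Ptprb 2.33-fold lower and Flt1 at least 8.84-fold lower. That made 2 of 6 members at least 2-fold higher and 2 lower, beside 8.08% and 9.69% of 14598 genes. These comparisons share their reference arrays with the preceding ones. Set directly beside Pik3ca/Trp53, Apc/Trp53 had at least 21.4-fold more Kdr, 3.11-fold more Cdh5 and 2.98-fold more Ptprb. Flt1 was at least 1.83-fold lower there, and Vwf differed by -0.28 ± 0.21.

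**Figure D2:**
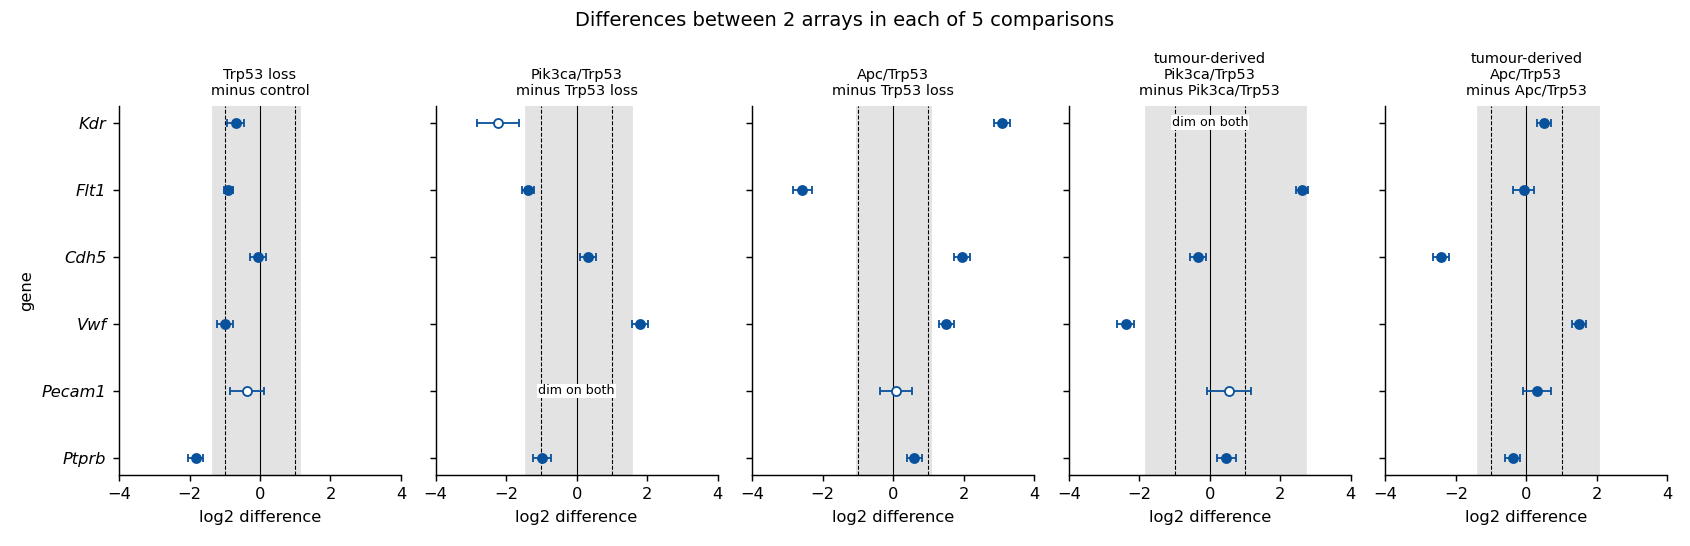
Log2 difference of 6 genes in the 5 comparisons (x axis, log2 difference with scanner error bars, and y axis, genes). Open points had 1 array not well above background, dashed lines mark a 2-fold difference and the grey band the 5th to 95th percentile of all genes. Kdr lies to the right of the band in Apc/Trp53 minus Trp53 loss, and Vwf lies on opposite sides of 0 in the tumour-derived comparisons.

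Each tumour-derived culture was compared with its source to ask how passage through an animal left these genes. In the Pik3ca/Trp53 pair, Flt1 was 6.19-fold higher after (2.63 ± 0.17, SD of 0.20 between 3 probes), and Vwf was 5.24-fold lower (-2.39 ± 0.24). Ptprb was 1.39-fold higher (0.47 ± 0.26), Cdh5 differed by -0.34 ± 0.23, and Kdr was dim on both arrays. Of 5 measured members, 1 was at least 2-fold higher and 1 lower, beside 14.6% and 10.4% of 14727 genes (2148 and 1537, or 1922 and 1970 on scaling to the median, with an all-gene median of -0.21). The members' median was 0.47, against -0.04 for all genes. Against the control, Kdr was at least 5.10-fold lower, Flt1 1.28-fold higher, Vwf 3.03-fold lower and Ptprb lower, with a log2 difference of -2.32 ± 0.22.

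In the Apc/Trp53 pair, Vwf was 2.81-fold higher after (1.49 ± 0.21) and Cdh5 5.34-fold lower (-2.42 ± 0.22). Kdr was 1.42-fold higher (0.51 ± 0.20), Ptprb 1.30-fold lower (-0.38 ± 0.21), and Flt1 differed by -0.08 ± 0.29 over 2 probes. Of 6 measured members, 1 was at least 2-fold higher and 1 lower, beside 11.3% and 8.03% of 14888 genes (1686 and 1196, or 1250 and 2060 on scaling to the median, with an all-gene median of -0.37). The members' median was 0.11, against -0.03 for all genes. Against the control, Kdr was 7.46-fold and Vwf 3.98-fold higher, Ptprb 3.03-fold lower and Flt1 at least 8.77-fold lower. Between the tumour-derived cultures, the level of Kdr was higher in Apc/Trp53 by at least 5.25 log2 units and that of Vwf 12.1-fold, and that of Flt1 was at least 11.2-fold lower.

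The ligands and co-receptors of these receptors were measured in the same RNA. Vegfa, the ligand of both KDR and FLT1, had levels of 2.27 in the control, 2.04 with Trp53 loss, 1.28 in Pik3ca/Trp53, 1.92 in tumour-derived Pik3ca/Trp53, 0.95 in Apc/Trp53 and 1.28 in tumour-derived Apc/Trp53. These are means over 4 probes, which disagreed between the control and Trp53 loss. The brightest was higher with Trp53 loss (4.40 against 3.85) and another lower (-1.17 against -0.24), so the order of that pair is not read. Vegfa was lowest in Apc/Trp53, 2.13-fold under Trp53 loss over 4 probes with an SD of 0.11. Pgf, placental growth factor, which binds FLT1 and not KDR, was 42.3-fold higher in tumour-derived Pik3ca/Trp53 than in its source (level 1.83 against -3.57), the comparison in which Flt1 was higher too. Vegfc, a ligand of FLT4 and KDR, was at least 12.3-fold higher in tumour-derived Pik3ca/Trp53 and at least 7.42-fold higher in tumour-derived Apc/Trp53, each against its source. This rests on 1 of 2 probes, since the other was not well above background on any array. Its main receptor Flt4 was well above background on no array.

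Angpt1, the activating ligand of TEK, was at least 15.6-fold higher in tumour-derived Pik3ca/Trp53 than in its source, and Angpt2, the context-dependent ligand, had levels between -1.79 and -1.19 on all 6 arrays. Their receptor Tek was dim on all 6. The co-receptor Nrp1 was 2.68-fold lower in Pik3ca/Trp53 and 2.45-fold lower in Apc/Trp53 than in Trp53 loss. The 2 probes of Nrp2, another co-receptor, went opposite ways in Pik3ca/Trp53, so its mean difference is not read. Of 20 genes of the VEGF and angiopoietin pathway, the numbers at least 2-fold higher and lower were 3 and 2 of 15 measured in Trp53 loss, 2 and 2 of 14 in Pik3ca/Trp53, 3 and 3 of 15 in Apc/Trp53, 4 and 3 of 18 in tumour-derived Pik3ca/Trp53, and 2 and 0 of 17 in tumour-derived Apc/Trp53. Their medians were 0.13, -0.20, -0.32, 0.38 and 0.32 in that order. The shares of all genes so called, higher and lower, were 5.86% and 7.58%, 9.15% and 8.54%, 5.43% and 5.19%, 14.6% and 10.4%, and 11.3% and 8.03%.

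**Figure D3:**
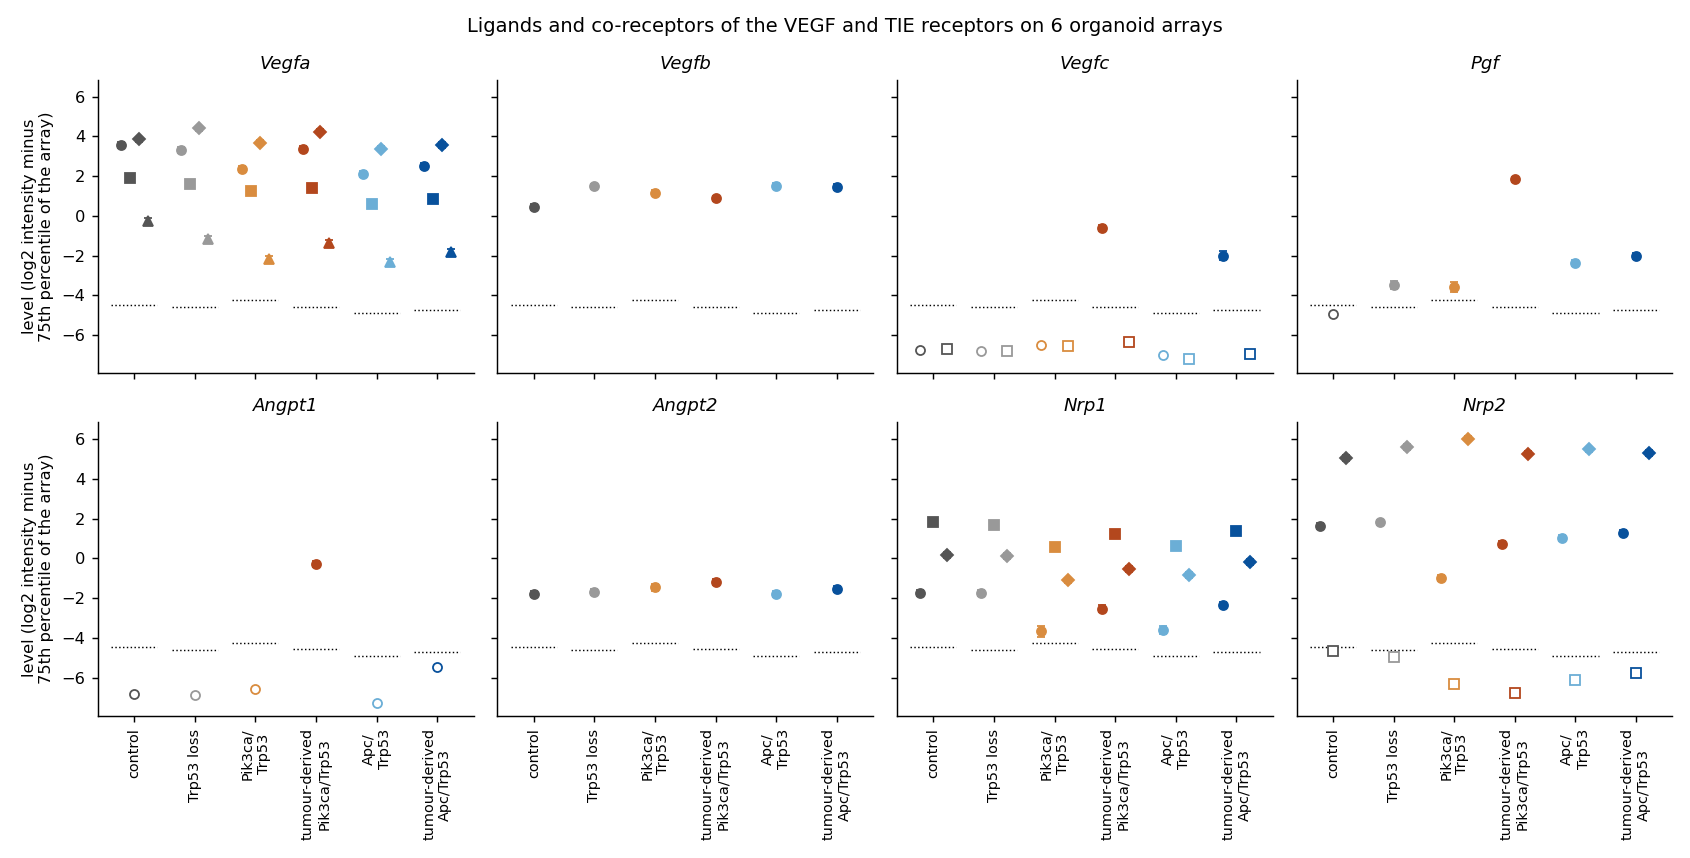
Level of 8 ligands and co-receptors of these receptors on the 6 arrays (y axis, log2 relative to the array's 75th percentile), with markers as in the plot of the 8 receptor and junction genes. Vegfa stayed well above background on every array, while Pgf reached its highest level, 1.83, in tumour-derived Pik3ca/Trp53.

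Other endothelial genes did not share one direction. Of 40, between 15 and 19 were well above background on an array, 11 on all 6 and 16 on none. The summed level ran from 31.1 to 122 in units of the 75th percentile, highest in tumour-derived Pik3ca/Trp53, where Tm4sf1 alone made up 100.0 of it. Without Tm4sf1 that array had the lowest sum, 21.5, and the others ran from 27.6 to 68.3. In Pik3ca/Trp53, 5 of 17 measured were at least 2-fold higher and 3 lower (median 0.67), beside 9.15% and 8.54% of all genes. The blood-forming and endothelial transcription factors Lyl1, Gata2 and Hhex were 10.4-fold, 7.33-fold and 3.92-fold higher. The secreted proteoglycan Esm1 was at least 6.97-fold lower. In Apc/Trp53, where Kdr and Cdh5 were higher, 2 of 18 were higher and 3 lower (median -0.25), beside 5.43% and 5.19%. In Trp53 loss, 2 of 18 were higher and 3 lower (median -0.51), beside 5.86% and 7.58%. Gata2 was 3.13-fold lower.

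In tumour-derived Pik3ca/Trp53, 8 of 23 measured endothelial genes were at least 2-fold higher than in its source and 8 lower (median -0.14), beside 14.6% and 10.4% of all genes. The surface protein Tm4sf1 was 45.3-fold higher and the transcription factor Sox17 6.73-fold lower. Esm1, an endothelial secreted proteoglycan, was at least 24.3-fold higher, and the junction protein Esam at least 47.8-fold lower. Erg, an ETS factor typical of endothelium, was well above background on this array alone, at a level of -1.36. In tumour-derived Apc/Trp53, 7 of 17 were higher and 5 lower (median 0.16), beside 11.3% and 8.03%, with Gata2 16.4-fold and the transcription factor Sox7 4.57-fold higher and Tm4sf1 7.15-fold lower.

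**Figure D4:**
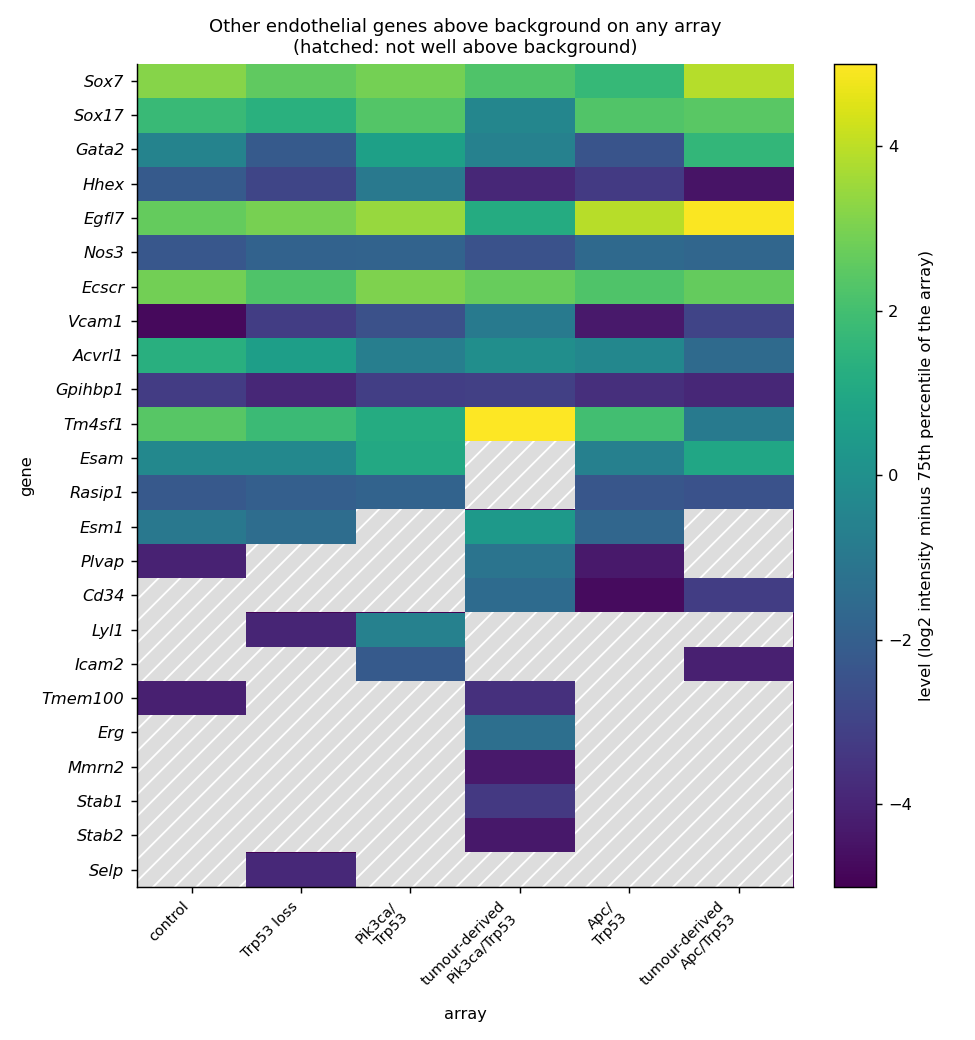
Levels (colour, log2 relative to the array's 75th percentile, from -5 to 5) of the 24 of 40 other endothelial genes that were well above background on at least 1 array, with arrays as columns. Hatched cells were not well above background. No column is high or low throughout.

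Markers of other cells that can hold these transcripts were measured on the same arrays. Fibroblast markers were well above background in 4 of 10 in tumour-derived Pik3ca/Trp53, with a summed level of 5.84, and in 0 or 1 of 10 elsewhere, with sums of 0.109 to 0.212. Most of the sum on that array was Postn, without which it was 0.446, against 0.101 to 0.203 elsewhere. The tumour-derived Pik3ca/Trp53 array also had the highest Flt1 for 2 of 3 probes and the lowest Vwf. Leukocyte and platelet markers were well above background in 6 to 9 of 19. Their sums ran from 3.88 in tumour-derived Apc/Trp53 to 24.8 in tumour-derived Pik3ca/Trp53 and do not tell these cell types apart. Cd68 and Itgam were well above background on all 6 arrays, at levels of 3.57 and 2.70 in the control. The platelet genes Gp9, Gp1bb, Gp6 and Treml1 were so on no array. Without Ppbp the sums ran from 3.83 in tumour-derived Apc/Trp53 to 18.4 in the control. The platelet chemokine Ppbp was 91.2-fold higher and the integrin Itgb3 at least 32.7-fold higher in tumour-derived Pik3ca/Trp53 than in its source. In that comparison, 3 of 9 measured leukocyte and platelet genes were at least 2-fold higher and 2 lower, beside 14.6% and 10.4% of all genes. Those lower were Lyz2, by at least 2.01-fold, and Pf4. The level of Pf4 was -3.67 in the source and -6.72, not well above background, in the tumour-derived culture. Ptprc, which marks all leukocytes, was well above background only in tumour-derived Apc/Trp53, at a level of -3.12. Mural cell markers were well above background in 4 of 12 on 5 arrays and in 7 on tumour-derived Apc/Trp53. Pdgfrb, Kcnj8 and Cnn1 were so on that array alone, at levels of -4.11, -1.48 and -3.84. There, 3 of 7 measured were at least 2-fold higher than in the source and 0 lower, beside 11.3% and 8.03% of all genes. The mural sums ran from 28.0 to 46.3. Mcam alone made up 20.3 to 35.7 of these sums. Without Mcam they ran from 6.90 in tumour-derived Apc/Trp53 to 17.6 in tumour-derived Pik3ca/Trp53. The part of any of these cells in the results was not tested.

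The genes most like each member across the 6 arrays were found by Pearson's r of levels, with dim signals set to the array's limit. Candidates were probes with a log2 range of at least 1 that were well above background wherever the member was. For Kdr, 2 of the 6 levels are therefore limits. Kdr was most like Gja4, a connexin of arterial endothelium (r of 0.991), Tcf4 (0.987) and Nkd2 (0.983), among 8545 probes of which 95 reached 0.9. The probe of Flt1 for NM_010228 was most like Pmaip1 (0.995), Jup (0.995) and Cx3cl1 (0.992), and Pmaip1 was among the 3 most like for all 3 Flt1 probes. Vwf was most like Klhl32 (0.995), Cd38 (0.990) and Aldh1a7 (0.985), and Ptprb most like Dnaaf4 (0.974), Nrros (0.968) and Tbrg3 (0.967). Cdh5 was most like Zbtb22 (0.963), with 8 probes reaching 0.9 of 7983. With 6 points that share 1 slide and 1 scaling chosen from so many candidate probes, such values describe these arrays only.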

How the data were processed

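Per the file headers and the submitters' processing notes, the authors read the arrays with Agilent Feature Extraction 11.0.1.1. The deposited files give each spot's intensity after background subtraction, unscaled between arrays. A second deposited table gives log2 values for 2047 probes, 6 of them belonging to 4 of these genes. Its differences between arrays match the scanner values apart from a constant. Its centring and choice of probes are not stated, its column medians ran from -0.32 to 0.15, and it served as an alternative.

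Spots flagged as outliers and control spots were dropped. No spot was saturated. Copies of a probe were averaged, and log2 intensities were scaled to each array's 75th percentile over non-control spots. Matching accessions to RefSeq named 34566 probes. A gene's difference is the mean over those of its probes that passed the background flag on either array. For a bound ("at least"), a dim signal was raised to the lowest signal that passed the flag on that array. Counts of genes use signals as measured and a threshold of 1 log2 unit. With 1 array per group no test was possible.

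The 8 genes and all lists were chosen with earlier results of these data known. From each other list and comparison, the genes that could be named were up to 3 with the largest difference among those measured on both arrays and up to 2 with the largest bound. Ligands, co-receptors, defining markers and genes that qualify a list's sum or count are named for their role. Alternatives were scaling to the median, quantile normalization, normexp (offset 50, on the spots' median signals), stricter and looser filters on dim probes, dim signals at the limit, the brightest probe, 1.5-fold and the deposited table. The tools were limma 3.58.1 and data.table (version 1.17.8) in R 4.3.3, and pandas 2.3.3, numpy 2.4.6 and matplotlib 3.10.9 in Python 3.11.15. The scripts were tested on simulated data.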

Additional observations from a re-analysis of the deposited data

Results flagged for a closer look

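For 3 of the genes, the difference had opposite signs in the cultures with Pik3caH1047R and with Apc580D, each beyond 1.96 scanner errors. Vwf differed by -2.39 between tumour-derived Pik3ca/Trp53 and its source, and by 1.49 between tumour-derived Apc/Trp53 and its source. Kdr differed from Trp53 loss by -2.23 as measured in Pik3ca/Trp53, where it was not well above background and the bound is -1.33, and by 3.09 in Apc/Trp53. Ptprb differed from Trp53 loss by -0.97 in Pik3ca/Trp53 and by 0.60 in Apc/Trp53. Its signs were not opposite against the control, from which it differed by -2.79 in Pik3ca/Trp53 and by -1.22 in Apc/Trp53. With 1 array per group, whether these effects differ between the genotypes was not tested. Under normexp correction the signs against Trp53 loss or the source culture stayed opposite. Kdr in Pik3ca/Trp53 (-0.59) and Ptprb in both (-0.43 and 0.40) then lay within 1.96 scanner errors.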

How the results depend on the processing

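Each group has 1 array, so the spread between cultures is unknown, and dim signals limit Kdr, Pecam1, Tek and Tie1. Of 211 differences of single genes under the alternatives, 180 stayed within their scanner error of the values given, 31 moved further, and 0 of those that were at least 2-fold changed sign. Many of the 180 match by construction. For a gene with 1 probe, well above background on both arrays, the filter, limit and brightest-probe alternatives return the given value. The deposited table differs from the scanner values by a constant only. The 180 is therefore not a count of independent agreements. Normexp correction, which changes the signals themselves, kept 12 and moved 16 of 28. The number of genes at least 2-fold lower in Trp53 loss, 2 as given, was 1 on scaling to the median, with quantile normalization and with normexp, 0 in the deposited table, which lacks Ptprb, and 4 at 1.5-fold. In Pik3ca/Trp53, the number lower, 2 as given, was 0 with normexp and 1 with probes above background on both arrays or with all probes, and the number higher, 1 as given, was 0 against the control, an alternative chosen after seeing the data. In Apc/Trp53, the number lower, 1 as given, was 0 with normexp and 2 against the control. With all probes, dim ones included, 2 were lower in tumour-derived Pik3ca/Trp53 and 2 higher in tumour-derived Apc/Trp53, against 1 each as given. The cause of these moves was not tested, apart from the missing gene and from the filters, which change the probes used. Of 8 probes, 6 kept the array with their highest level on scaling to the median, 6 with quantile normalization and 7 with normexp. No paired analysis was possible because each group has 1 array and no replicate number.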
